A study of Homo sapiens with 4 samples.

Results

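The transcriptome described here is that of 293T cells that had received a control RNA and no miRNA mimic. 293T is a human embryonic kidney line that carries the SV40 large T antigen, and it is an established line grown in culture, so that it stands for 1 lineage and not for kidney tissue. The sample labels give 48 h of transfection, whereas the methods of the study state a shorter time, so the time of harvest is uncertain. The library was 1 of 4, the others being from 293T cells given a mimic of miR-1, of miR-122, or of miR-124, and these appear below only to show the value of the same gene in other cultures. Each condition had 1 library, so no value has a replicate error and no test between conditions was made. Transfection and the control RNA itself were common to all that was measured here, and untransfected cells were not analysed here.

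The members are the genes with at least 1 FPKM in the control RNA library, and there were 9488 of them among the 58243 Ensembl genes of the file, or 16.3%. FPKM stands for fragments per kilobase of gene and per 1000000 mapped fragments. For many genes in this file the length was the whole span from first to last base, introns included, so their FPKM values understate the mRNA where introns are long. Of 32010 annotated genes above 0 in any library, 18302 gave whole reads at this length and 13681 at a fitted one. Among 4975 genes with a fitted length and at least 200 reads, 92.0% of the lengths were within 10% of the span, but some were not, as for EEF1A1 with 8047 bases used against an annotated span of 36280. Wherever levels of different genes are compared, a second measure is therefore given, the reads recovered from the FPKM divided by the length of the gene's main transcript and by the size of the library in units of 1000000 reads, called the level per transcript kilobase. The control RNA library had 6624306 reads, and the 4 libraries ranged from 5887055 to 9452232. A single read over a gene of 1 kb was worth 0.151 FPKM. Intervals given below are exact 95% Poisson intervals of the recovered reads, and they cover counting error only.

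A cell line in culture keeps the genes needed for growth active in every cell, namely those for ribosomes, energy supply, the cytoskeleton, and the cell cycle. Genes of specialised tissues are mostly silent. The transcription factors that remain active can reflect the tissue and the body level a line came from, but need not do so. HEK293 and its derivatives are widely used because they take up foreign nucleic acids easily, and they have long been noted for neuronal as well as epithelial features.

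Most expressed genes were at low FPKM. In the control RNA library 7673 genes were at 1 to 10 FPKM, 1605 at 10 to 100, 183 at 100 to 1000, and 27 at 1000 or more, and the median of the expressed genes was 3.12 FPKM. No read was seen for 32688 genes, or 56.1% of the file. The threshold fell in the dense part of the distribution, with 489 genes at 0.9 to 1 FPKM and 454 at 1 to 1.1 FPKM. The member nearest to the threshold, ENSG00000162819, had 1.000039 FPKM, and the nearest gene outside it, ENSG00000079950, had 0.999953 FPKM. At this depth 976 of the expressed genes (10.3%) rested on fewer than 10 reads, but only 12 of these were protein-coding, and the median expressed protein-coding gene had 430 reads.

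**Figure D1:**
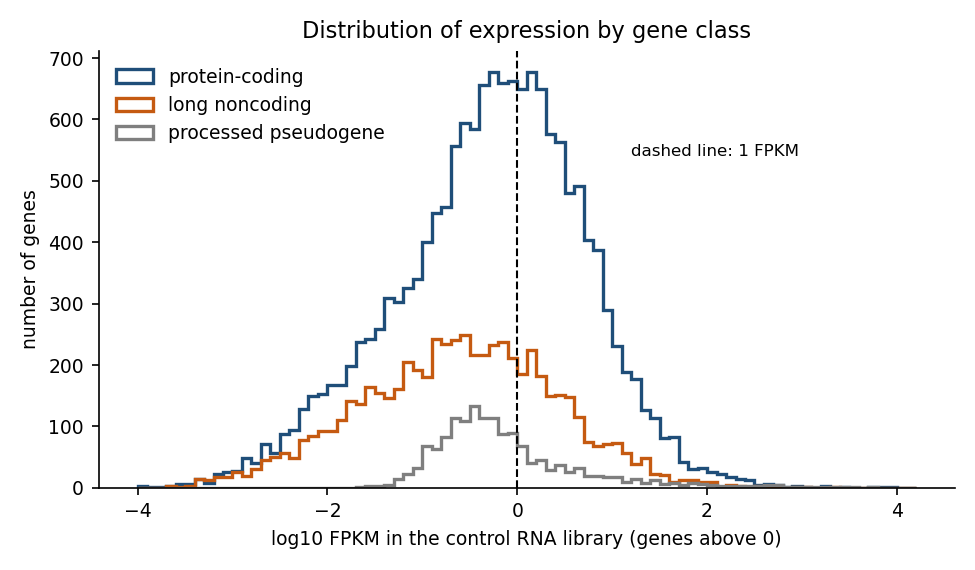
Number of genes (y axis) against log10 FPKM in the control RNA library (x axis) for protein-coding genes, long noncoding RNA genes, and processed pseudogenes above 0, with a dashed line at 1 FPKM. The line cuts through the peak of the protein-coding genes and lies to the right of the peaks of the other classes.

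The members were much the same genes in the other cultures. Of the 9488 genes, 7973 (84.0%) were also at 1 FPKM or more in the miR-1, miR-122, and miR-124 libraries, and of the expressed protein-coding genes 5885 (92.0%) were. The number at 1 FPKM or more was 9180 with the miR-1 mimic, 9297 with miR-122, and 9274 with miR-124. Genes that passed in the control RNA library alone numbered 519, none of them above 5.15 FPKM and 79 of them at 2 FPKM or more. Pearson's r of log2 FPKM between the control RNA library and the others was 0.968, 0.972, and 0.973 in that order. It was taken across the 9180, 9109, and 9119 expressed genes that were above 0 in the other library, and genes do not vary independently of each other.

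Protein-coding genes made up most of what was expressed. Of 19708 protein-coding genes 6397 were at 1 FPKM or more, or 32.5%, and they were 67.4% of the expressed genes and held 73.7% of the reads. All protein-coding genes together held 90.4%. Long noncoding RNA genes followed with 1706 of 14262 (12%), and the class as a whole held 5.99% of the reads. Among processed pseudogenes, which are reverse-transcribed copies of mRNAs, 469 of 10109 (4.64%) passed. Of 1877 miRNA precursor genes 173 passed, and 151 of these had fewer than 10 reads, since very few reads over such a short gene already give 1 FPKM. The same held for 95 of the 99 snRNA genes and 82 of the 84 snoRNA genes that passed. Small RNA classes were therefore at the limit of what this library could measure.

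The threshold of 1 FPKM met genes of different span very unequally. Among 13245 protein-coding genes with at least 10 reads, the gene span was at the median 9.98 times the transcript length, and the FPKM was at the median 0.102 of the level per transcript kilobase. When these genes were ordered by span and divided into 5 equal groups of 2649 genes, 84.4% of the group with a median span of 5.91 kb passed 1 FPKM, against 70.9%, 54.2%, and 27.1% of the next ones and 4.23% of the group with a median span of 176.0 kb. By the level per transcript kilobase the same groups passed 1 at 95.7%, 95.7%, 94.5%, 92.8%, and 87.8%. The minimum of 10 reads itself favours passing on this scale, so these shares are partly set by it. Over the same genes Spearman's rho with span was -0.704 for FPKM and -0.289 for the level per transcript kilobase. The second scale was thus not free of span. Across all protein-coding genes 12443 (63.1%) passed 1 per transcript kilobase, and 6052 of them were under 1 FPKM. The absence of a gene from the list at 1 FPKM is thus not the absence of its mRNA, and the counts of the gene lists and families below are given on both scales. The shares to set beside them are the 32.5% and 63.1% of all protein-coding genes.

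**Figure D2:**
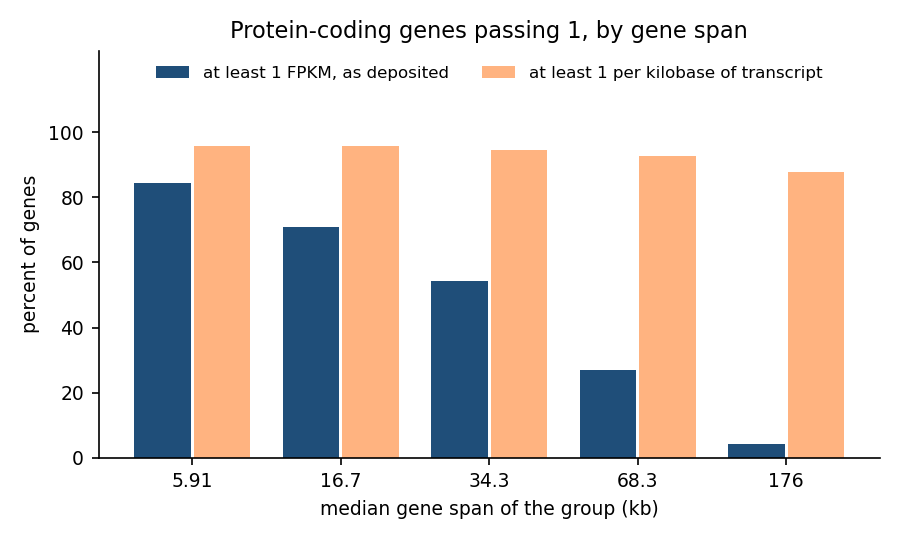
Percent of protein-coding genes with at least 10 reads (y axis) that passed 1 FPKM as deposited (dark bars) or 1 per transcript kilobase (light bars), for 5 groups of 2649 genes ordered by gene span, each marked by its median span in kb (x axis). The dark bars go from 84.4% to 4.23% while the light bars stay between 95.7% and 87.8%. The minimum of 10 reads partly sets the light bars.

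The genes whose rank improved most when the transcript length was used had annotated spans far longer than their main transcripts. The length of their introns was not measured. Of the first 5, 3 encode mitochondrial proteins. NDUFAF2, an assembly factor of respiratory complex I, had 0.163 FPKM and rank 11198 among protein-coding genes, but 53.5 per transcript kilobase and rank 1386. MRPL33, a protein of the large mitochondrial ribosomal subunit, went from 0.246 FPKM and rank 10284 to 105 per transcript kilobase and rank 637. The other 3 of the 5 largest moves were COMMD1 (119 reads over a span of 258524 bases), MRPS22 (407 reads over 354692 bases), and MGST1 (337 reads over 262118 bases). Their values were close in the other libraries, for example 0.335, 0.237, and 0.248 FPKM for MRPL33 in the miR-1, miR-122, and miR-124 libraries. None of the 5 would count as expressed at 1 FPKM in any of the 4 libraries.

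The most abundant mRNAs were those of the mitochondrial genome, which encodes subunits of the respiratory chain and has no introns. MT-CO1, a subunit of cytochrome c oxidase, had 8685 FPKM (95% interval 8628 to 8743), and 8234, 8887, and 8385 FPKM in the miR-1, miR-122, and miR-124 libraries. MT-CO2 had 6999 FPKM and MT-CO3 had 5466 FPKM, so that the 3 mitochondrial subunits of this enzyme were the 3 highest protein-coding genes on either scale. The subunits of complex I were spread more widely, from MT-ND3 at 3079 FPKM through MT-ND6 at 1869, MT-ND4 at 1855, MT-ND1 at 1045, and MT-ND2 at 1011 to MT-ND5 at 949 and MT-ND4L at 403 FPKM. MT-ATP6 of the ATP synthase had 2592 FPKM and MT-CYB of complex III had 1949 FPKM. As no intron enters their length, their FPKM and level per transcript kilobase are nearly the same number.

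All 13 mitochondrial protein genes passed 1 FPKM and together held 3.45% of the reads, and the whole mitochondrial genome held 4.19%. In the miR-1, miR-122, and miR-124 libraries that share was 4.08%, 4.39%, and 4.05%. MT-ATP8 stood apart from the other 12 with 4.4 FPKM from 6 reads, and it had 1.54, 0, and 1.5 FPKM in the other libraries. This gene overlaps MT-ATP6, and how reads in overlapping genes were counted is not given in the sources used here. MT-ND6 is the only one of the 13 on the light strand, and whether reads from the opposite strand were counted there was not tested. MT-RNR2, the large mitochondrial rRNA, had 3650 FPKM and MT-RNR1, the small one, had 1762 FPKM in a library made for mRNA.

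Ribosomal proteins led the nuclear genes. RPS2 had 994 FPKM (980 to 1009), followed by RPL7A at 824, RPL8 at 765, RPS21 at 603, RPS15 at 555, and RPL41 at 523 FPKM. Among the 20 protein-coding genes with the highest FPKM, mitochondrial ones included, TMSB10, an actin-binding thymosin, was the only nuclear gene that is not a ribosomal protein, at 480 FPKM. RPS2 had 1111, 1073, and 1057 FPKM in the miR-1, miR-122, and miR-124 libraries, RPL7A had 898, 858, and 843, and TMSB10 had 560, 538, and 522. For these 3 genes the control RNA library was the lowest of the 4, a difference that has no replicate check. Just behind the 20 came ubiquitin (UBB, 465 FPKM), the glycolytic enzyme GAPDH (457), the tubulins TUBA1B (413) and TUBB4B (336), the translation elongation factors EEF1A1 (332) and EEF2 (312), and ferritin light chain (FTL, 309).

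Per transcript kilobase the order of these genes changed. RPL27 had 372 FPKM and 3450 per transcript kilobase, which moved it from rank 26 to rank 4 among protein-coding genes. RPL35 moved from rank 27 to 5, RPS18 from 33 to 11, RPL18 from 34 to 17, and RPS16 from 25 to 20. RPL41 and TMSB10 moved the other way, from ranks 17 and 19 to ranks 44 and 41. EEF1A1 did so too, from rank 29 to 76, with 761 per transcript kilobase, and TUBB4B from rank 28 to 96, with 535. Of the 20 genes highest by FPKM 15 were also among the 20 highest per transcript kilobase. Over the family 79 of 86 cytosolic ribosomal protein genes passed 1 FPKM, with a median of 103 FPKM, and 82 passed 1 per transcript kilobase.

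**Figure D3:**
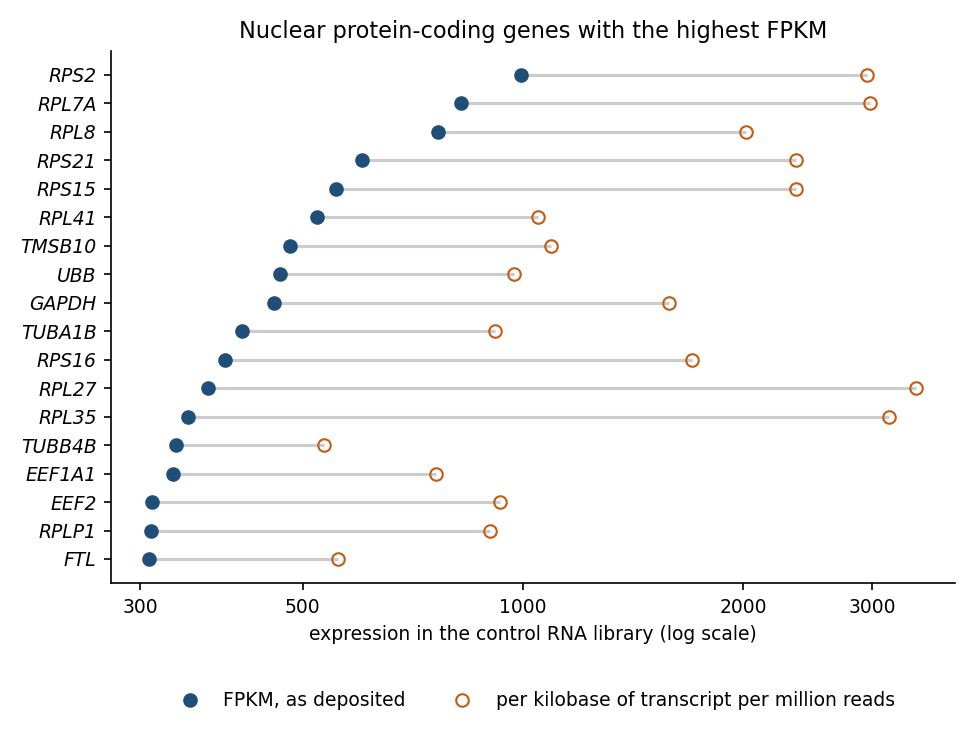
Expression in the control RNA library (x axis, log scale) of 18 of the 20 nuclear protein-coding genes with the highest FPKM (y axis), as FPKM (filled circles) and as level per transcript kilobase (open circles). RPL27, RPL35, and RPL7A pass RPS2 on the measure per transcript, whereas TUBB4B and FTL move least.

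Ribosomal protein mRNAs are known to begin with a run of pyrimidines, the 5′ terminal oligopyrimidine tract, through which their translation is tied to cell growth. The 30 bases from 10 before the annotated transcription start to 20 from it are shown for 3 abundant ribosomal protein genes, for the elongation factor EEF2, and for 2 genes of similar abundance that are neither, to show what separates them in sequence. They were read from GRCh38 on the strand of the gene at the start of the main GENCODE 44 transcript, and capitals mark the longest run of C and T that comes within 5 bases of the start.
RPL7A, chr9:133348208-133348237, plus strand: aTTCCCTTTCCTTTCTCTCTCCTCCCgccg
RPS21, chr20:62387093-62387122, plus strand: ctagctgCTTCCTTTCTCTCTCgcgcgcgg
RPL35, chr9:124861938-124861967, minus strand: cgcctaCTTCCTCTTTCCCTCggagcgggc
EEF2, chr19:3985444-3985473, minus strand: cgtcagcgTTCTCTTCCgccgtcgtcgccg
GAPDH, chr12:6534507-6534536, plus strand: ctcccgcttcgCTCTCTgctcctcctgttc
UBB, chr17:16381081-16381110, plus strand: agcccggagcaTTTaggggcggttggcttt

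The run was 25 bases long in RPL7A, 15 in RPS21, 15 in RPL35, and 9 in EEF2, against 6 in GAPDH and 3 in UBB. A run of at least 8 was found in 64 of the 79 ribosomal protein genes at 1 FPKM or more (81.0%) and in 11.3% of all 19658 protein-coding starts searched, on the gene's strand only. Among the 122 genes at 100 FPKM or more 39.3% had one, and among the 78 of these that are not ribosomal 12.8% did. Both groups include the mitochondrial protein genes other than MT-ATP8, which were not set apart. The most abundant class of nuclear mRNA therefore carried a start sequence that was near its background share in the other abundant genes, mitochondrial ones included. RPS15 and RPL27 had runs of 2 bases each at the annotated start, which says only that these letters are not in this window.

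Promoter composition differed with the level of expression. Mitochondrial protein genes were included in these groups, and all of them but MT-ATP8 were at 100 FPKM or more. In the 300 bases from 250 before to 50 after the start, the ratio of observed to expected CpG had a median of 0.288 in 4072 protein-coding genes at 0 FPKM, 0.782 in those above 0 and under 1 FPKM, 0.869 at 1 to 10 FPKM, 0.905 at 10 to 100 FPKM, and 0.932 at 100 FPKM or more. A ratio of at least 0.6, a usual limit for a CpG island, was found in 23.9% of the genes at 0 and in 91.6% of those at 1 FPKM or more. The genes that missed 1 FPKM but passed 1 per transcript kilobase were close to the expressed ones, with 83.8%. A TATA box, searched as TATAAA between 40 and 15 bases before the start on the gene's strand, was present in 8.84% of genes at 0, in 1.68% at 1 to 10 FPKM, and in 9.84% at 100 FPKM or more, against 3.96% of all. The 415 olfactory receptor genes, of which none passed 1 FPKM, had a CpG ratio of at least 0.6 in 2.17% of promoters.

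The housekeeping and cell cycle genes examined were expressed almost in full. All 20 housekeeping genes passed 1 on either scale, with a median of 42.8 FPKM. The glycolytic enzymes GAPDH (457 FPKM) and ENO1 (140 FPKM) led with the elongation factors and tubulins named above. The lowest, picked after the values were seen, were HPRT1 at 1.18 FPKM, an enzyme of purine salvage whose gene has long introns and which had 51 per transcript kilobase, and TBP, the TATA-binding protein, at 1.29 FPKM.

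Of 28 cell cycle genes 26 passed, and all 28 passed per transcript kilobase. MCM7, a subunit of the replicative helicase, had 54.6 FPKM, and CDK4, the kinase that works with D-type cyclins, had 42.3 FPKM. AURKB, a mitotic kinase, had 24.1 FPKM, TOP2A, which untangles chromosomes, had 23 FPKM, and PCNA, the sliding clamp of DNA replication, had 22.4 FPKM. The proliferation antigen MKI67 had 12 FPKM in the control RNA library and 9.25, 10.7, and 9.84 FPKM in the miR-1, miR-122, and miR-124 libraries. The 2 that did not pass were CCND3 at 0.547 FPKM and the retinoblastoma gene RB1 at 0.346 FPKM, both long genes with 31.1 and 12.9 per transcript kilobase. Inhibitors of the cycle were expressed beside its drivers, with CDKN1A at 16.4 FPKM and CDKN2A at 13.5 FPKM (380 per transcript kilobase). MKI67, CCND3, RB1, CDKN1A, and CDKN2A are given here after their values were seen.

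Of 17 transcription factors of kidney progenitors and the nephron, 6 passed 1 FPKM, or 35.3% against 32.5% of protein-coding genes, and 12 passed per transcript kilobase, where 63.1% of protein-coding genes did. The list as a whole was thus close to the background. FOXD1, which marks progenitors of the kidney stroma, had 19 FPKM (17.3 to 20.8), and 14.9, 20.6, and 27.2 FPKM in the miR-1, miR-122, and miR-124 libraries. SIX2, which maintains nephron progenitors, had 7.07 FPKM, and 8.3, 8.95, and 9.56 FPKM in the others. LHX1 had 1.23 FPKM, EMX2 had 1.11, and GATA3 had 1.08, and LHX1 and EMX2 were under 1 FPKM in the 3 other libraries, so that their place among the expressed genes is not firm. FOXD1 and SIX2 were well clear of the threshold in every library. In RNA from a whole culture, few cells with much of an mRNA and many cells with little of it cannot be told apart.

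Other members of the list differed widely. PAX2 had 12 reads (0.0192 FPKM), PAX8 had 1 read, and TFAP2B was at 0 in all 4 libraries, where 3 reads would have given 0.0157 FPKM. WT1, needed for the early kidney and the glomerulus, had 118 reads, 0.372 FPKM, and 5.88 per transcript kilobase. OSR1 had 0.632 FPKM, SALL1 had 0.127, and EYA1 had 0.0559 FPKM. PAX2, PAX8, WT1, OSR1, SALL1, and EYA1 are given after their values were seen.

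Of 20 genes of the differentiated kidney epithelium 1 passed 1 FPKM and 6 passed per transcript kilobase. The water channel AQP2, the urinary protein UMOD, the organic anion transporters SLC22A6 and SLC22A8, the potassium channel KCNJ1, and the calcium-binding protein CALB1 were at 0. The gene that passed was SLC5A2, the glucose transporter of the proximal tubule, with 6.69 FPKM from 348 reads and 7.4, 8.08, and 8.48 FPKM in the miR-1, miR-122, and miR-124 libraries. Other annotated genes cover 42.2% of the exons of SLC5A2, and the part of those genes in its reads was not tested. PODXL, a podocyte sialoprotein named after its value was seen, had 0.594 FPKM and 5.75 per transcript kilobase. The counts of 1 and 6 of 20 are shares below those of all protein-coding genes, and the label of the line as kidney cells was matched by single genes on either list rather than by a list.

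Adrenal genes were mostly at or near 0. Of 11 adrenal cortex genes 1 passed on either scale, FDX1, an electron carrier with a general role in mitochondria, at 1.23 FPKM, whereas the steroid enzymes CYP17A1, CYP21A2, CYP11B1, CYP11B2, and HSD3B2 and the receptor MC2R were at 0. Of 13 genes of the adrenal medulla and sympathetic neurons 4 passed per transcript kilobase and 2 passed 1 FPKM, the transcription factor HAND2 at 1.58 FPKM and PNMT, which makes adrenaline, at 1.03 FPKM from 17 reads (0.599 to 1.65). TH, which makes the catecholamine precursor, was at 0, as were the transporters SLC18A1 and SLC6A2.

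Neuronal genes were divided. Of 24 genes 4 passed 1 FPKM, or 16.7% against 32.5% of protein-coding genes, and 3 were at 0. Per transcript kilobase 13 passed, a share below the 63.1% of protein-coding genes. UCHL1, an abundant deubiquitinating enzyme of neurons, had 35.7 FPKM (34.4 to 37.1), and 44.2, 40.7, and 39 FPKM in the miR-1, miR-122, and miR-124 libraries. NEFL, the light neurofilament, had 29.4 FPKM, and 29.3, 33.6, and 27.7 FPKM in the others. ENO2, the neuronal enolase, had 11.7 FPKM, and PRPH, an intermediate filament of peripheral neurons, had 3.31 FPKM, with other genes over 66% of its exons. The filament genes did not go together, since INA was at 0 in all 4 libraries, NEFH had 3 reads, and NEFM had 0.918 FPKM. Values for NEFH and NEFM are given after they were seen.

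The regulators and synaptic genes of mature neurons were under 1 FPKM. STMN2 and ELAVL2 were at 0 in all 4 libraries. Chosen after their values were seen, DCX had 2 reads, SNAP25 had 6, and the calcium sensor SYT1 had 48 reads with 1.54 per transcript kilobase. NCAM1 (8.04), GAP43 (5.95), GAD1 (3.08), MAPT (2.75), SLC17A7 (2.41), SYP (2.31), and RBFOX3 (1.48), chosen in the same way, also passed 1 per transcript kilobase. TUBB3 had 4 reads, but 92.8% of its exons lie in other annotated genes, so this value says little about its mRNA.

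Genes of neural progenitors were expressed more fully. Of 12 genes 9 passed on either scale, with a median of 4.21 FPKM. This was 75.0%, against 32.5% of protein-coding genes at 1 FPKM and 63.1% per transcript kilobase, so the excess was smaller on the second scale. SOX4 had 33.1 FPKM, and 25.4, 25.7, and 30.8 FPKM in the miR-1, miR-122, and miR-124 libraries. SOX2, which keeps neural progenitors undifferentiated and is also a pluripotency factor, had 17 FPKM (15.1 to 19.1), and 15.5, 18.4, and 17.3 FPKM in the others. ZIC2 had 9.42 FPKM, the intermediate filament nestin (NES) 6.59 FPKM, and SOX11 4.66 FPKM. SOX1, the close relative of SOX2, was at 0 in all 4 libraries, and 3 reads would have given 0.0994 FPKM. FABP7 and PROM1, given after their values were seen, had 2 reads each. The 10 glial genes had shares below those of protein-coding genes on either scale. Of them 1 passed 1 FPKM, OLIG2, a factor of oligodendrocyte progenitors, at 2.39 FPKM, and 3 passed per transcript kilobase. These were OLIG2 (3.23) and, given after their values were seen, the myelin gene MBP (5.57) and the filament gene GFAP (1.32). The myelin gene MOG was at 0.

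Of 17 epithelial genes 5 passed 1 FPKM, or 29.4% against 32.5% of protein-coding genes, and 9 passed per transcript kilobase. The simple keratins were high, with KRT18 at 97.5 FPKM (93.8 to 101), KRT8 at 26.5, and KRT19 at 12.3 FPKM. Per transcript kilobase KRT8 exceeded KRT18, with 783 against 278, which is the reverse of their order by FPKM. DSP, an adhesion protein of desmosomes, had 4.17 FPKM and the splicing factor ESRP2 had 2.23 FPKM. GRHL2 was at 0 in all 4 libraries, and CLDN3, KRT5, and KRT14 were at 0 in the control RNA library. The epithelial cadherin CDH1, with 1 read, and the adhesion molecule EPCAM, with 2 reads, are given after their values were seen. So are the tight junction genes OCLN (2.93 per transcript kilobase), CLDN4 (1.69), and CLDN7 (1.66), which passed on that scale only.

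The shares of mesenchymal genes were not far from those of protein-coding genes, below at 1 FPKM and above per transcript kilobase. With 18 genes, neither difference is read as a trait of the list. Of 18 genes 4 passed 1 FPKM, or 22.2% against 32.5%, and 3 passed it in all 4 libraries. On the other scale 13 passed, a larger share than the 63.1% of protein-coding genes. VIM, the mesenchymal intermediate filament, had 58 FPKM, and 68.3, 66.3, and 58.3 FPKM in the miR-1, miR-122, and miR-124 libraries. COL1A1 had 3.27 FPKM while COL1A2, the other chain of type I collagen, was at 0, and so was THY1. The transcriptional repressors SNAI2 and SNAI1 had 1.25 and 1.15 FPKM. CDH2, the neural cadherin, had 0.261 FPKM but 392 reads and 14.7 per transcript kilobase. CDH2, chosen after its values were seen, thus missed 1 FPKM but passed per transcript kilobase, whereas CDH1 had 0.0314 per transcript kilobase. Vimentin and the simple keratins were thus found in the same culture, and with RNA from many cells it cannot be told apart whether the same cells carried both.

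Lineages foreign to the line were silent by most of their markers. None of 16 blood and immune genes, 10 endothelial genes, and 13 liver genes passed 1 FPKM, and 2, 1, and 1 passed per transcript kilobase. PTPRC, the common leukocyte antigen, CD3E, MS4A1, CD79A, the haemoglobin gene HBB, and GATA1 were at 0, as were the endothelial genes TEK and EMCN. Of the liver genes, APOB, TTR, FGA, FGB, HNF4A, TF, AHSG, and APOC3 were at 0. For each gene at 0 the floor used here is the value of 3 reads, which for the blood, endothelial, and liver genes named at 0 is at most 0.135 FPKM.

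Of 15 muscle genes 2 passed 1 FPKM, both transcription factors, and 4 passed per transcript kilobase. Either count was a share below that of protein-coding genes. NKX2-5, a regulator of the early heart, had 14.7 FPKM (13.2 to 16.4) from 317 reads, and 20.2, 17.2, and 20.4 FPKM in the miR-1, miR-122, and miR-124 libraries. MYOD1, the regulator of skeletal muscle, had 1.71 FPKM from 29 reads, and 1.32, 1.13, and 1.63 FPKM in the others. Both were above 1 FPKM in every library, and no annotated gene overlaps the exons of either. The other 13 muscle genes did not pass, and MYH6, MYH7, TNNI3, MYL2, MYOG, and MYF5 were at 0 in the control RNA library. Per transcript kilobase the fetal myosin MYH3 (1.15) and desmin (DES, 2.69), named after their values were seen, passed 1 as well, at 46 and 40 reads.

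Of 11 pluripotency genes 2 passed, the DNA methyltransferase DNMT3B at 1.65 FPKM and UTF1 at 1.41 FPKM from 12 reads (0.729 to 2.46), and 5 passed per transcript kilobase. UTF1 was under 1 FPKM in the miR-1 and miR-122 libraries, with 0.989 and 0.529 FPKM. POU5F1, a core pluripotency factor named after its value was seen, had 0.147 FPKM and 1.71 per transcript kilobase. NANOG and LIN28A were at 0, and DPPA4, ZFP42, TDGF1, and L1TD1 were at 0 in all 4 libraries. LIN28B, which blocks maturation of let-7 miRNAs and was picked after its value was seen, had 0.438 FPKM but 426 reads and 11.8 per transcript kilobase. Of 15 germline and cancer-testis genes 4 passed per transcript kilobase and 2 passed 1 FPKM, PRAME at 8.56 FPKM and MAGEC2 at 1.64 FPKM, with MAGEA4, CTAG1B, SSX2, DAZL, MAEL, and PIWIL1 at 0. The counts of the pluripotency and the germline list were shares below those of protein-coding genes on either scale.

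The HOX genes, which record position along the body axis and lie in 4 clusters in the order in which they act, were widely expressed. Of 39 genes 23 passed 1 FPKM, or 59.0% against 32.5% of protein-coding genes, and 20 passed it in all 4 libraries. Per transcript kilobase 32 passed, a larger share than the 63.1% of protein-coding genes. The highest were HOXD13 at 19.7 FPKM (17.8 to 21.7), HOXB9 at 14.4, HOXD9 at 13.6, HOXB13 at 7.56, and HOXD8 at 5.53 FPKM. HOXD13 had 16.9, 16.8, and 18.7 FPKM in the miR-1, miR-122, and miR-124 libraries, HOXB9 had 10.2, 14, and 13.5, and HOXD9 had 16.8, 16.6, and 19.6, so the 3 highest were the same in each library and their order was not.

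Median expression was higher at the end of the clusters that serves the posterior body. Of 16 genes of paralog groups 9 to 13, 13 passed, with a median of 2.54 FPKM, against 6 of 11 in groups 5 to 8 (median 1.48 FPKM) and 4 of 12 in groups 1 to 4 (median 0.692 FPKM). Per transcript kilobase the medians were 8.37, 4.12, and 2.52, but the counts did not follow the order of the groups, with 13 of 16, 10 of 11, and 9 of 12. By cluster, 6 of 11 HOXA genes, 6 of 10 HOXB genes, 4 of 9 HOXC genes, and 7 of 9 HOXD genes passed 1 FPKM, and 9, 9, 6, and 8 passed per transcript kilobase. The other members above the threshold were HOXA5 (4.79 FPKM), HOXA7 (1.75), HOXA9 (1.35), HOXA10 (1.53), HOXA11 (2.68), HOXA13 (1.99), HOXB2 (4.68), HOXB4 (3.22), HOXB6 (3.63), HOXB8 (1.48), HOXC8 (2.87), HOXC9 (1.47), HOXC10 (2.4), HOXC13 (4.66), HOXD1 (1.1), HOXD4 (1.28), HOXD10 (3.76), and HOXD11 (4.25). HOXB1, the most anterior gene of its cluster, was at 0 in all 4 libraries.

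**Figure D4:**
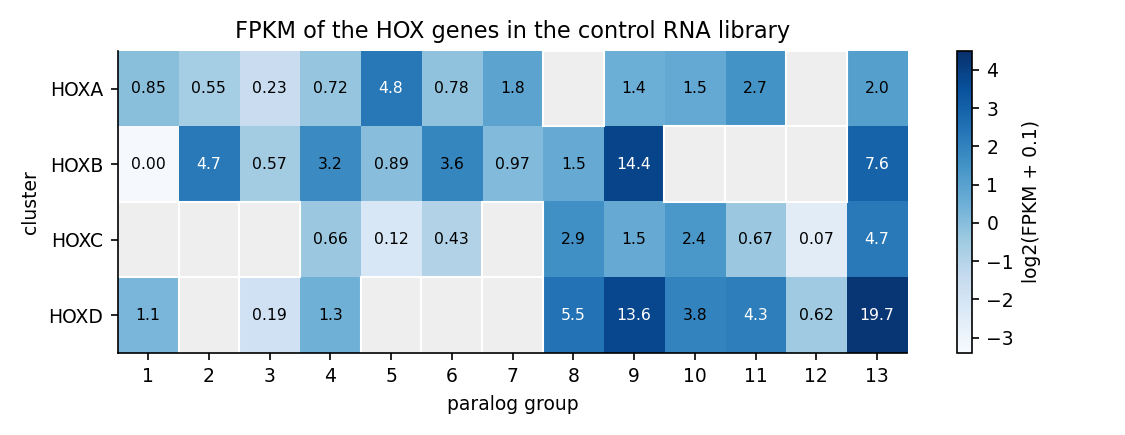
FPKM of the 39 HOX genes in the control RNA library, by cluster (rows) and paralog group (columns), with colour on a log2(FPKM + 0.1) scale and plain grey where no gene exists. The darkest fields are in groups 9 and 13 of HOXB and HOXD, and HOXB1 is at 0.

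Of 47 receptor tyrosine kinases, through which growth factors signal, 12 passed 1 FPKM, or 25.5% against 32.5% of protein-coding genes. Per transcript kilobase 34 passed, a larger share than the 63.1% of protein-coding genes. DDR1, a collagen receptor, had 7.96 FPKM, and the fibroblast growth factor receptors FGFR3 and FGFR4 had 7.32 and 2.99 FPKM. The ephrin receptors EPHA2 and EPHB4 had 3.22 and 3.07 FPKM. FGFR3 had 6.95, 7.81, and 7.92 FPKM in the miR-1, miR-122, and miR-124 libraries. CSF1R, NTRK3, ALK, ROS1, and MUSK were at 0. EGFR, chosen after its value was seen, had 0.241 FPKM from 308 reads and 4.69 per transcript kilobase.

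Sensors of foreign DNA and of microbial products were few. Of 17 genes 2 passed on either scale, STING1, the adaptor of the cytosolic DNA pathway, at 4.59 FPKM, and TICAM1, an adaptor of Toll-like receptors, at 1.16 FPKM. This share was below that of protein-coding genes on either scale, and only STING1 passed 1 FPKM in all 4 libraries. STING1 had 4.25, 5.28, and 4.41 FPKM in the miR-1, miR-122, and miR-124 libraries. CGAS, the enzyme that produces the signal for STING1 and is named after its value was seen, had 2 reads here and none in any other library. The receptors TLR2, TLR4, TLR7, TLR8, and TLR9, the adaptor MYD88, and the DNA sensors AIM2, IFI16, and ZBP1 were at 0. For TLR9 other genes cover 99.7% of the exons, which limits what its 0 says, and MYD88 had 0.0931, 0.15, and 0.0681 FPKM in the other libraries.

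The host genes of the 3 miRNAs used in the study were without reads. None of the 5 annotated host transcripts, MIR1-1HG, MIR133A1HG, MIR122HG, MIR124-1HG, and MIR124-2HG, had a read in the control RNA library, and 3 of them had none in any library. With 3 reads they would have had 0.0223 to 0.0765 FPKM. Mature miRNAs are too short for this kind of library and were not measured.

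Gene families showed the same split between general and specialised functions. Against the 32.5% of protein-coding genes that passed 1 FPKM, 65 of 78 mitochondrial ribosomal proteins passed (83.3%), led by MRPS34 at 181 FPKM. Translation initiation factors passed for 42 of 56, led by EIF5A at 132 FPKM, proteasome subunits for 34 of 46, led by PSMB4 at 103 FPKM, DEAD/DEAH box helicases for 37 of 54, led by DDX5 at 49.9 FPKM, subunits of NADH dehydrogenase for 26 of 39, led by NDUFB10 at 84.4 FPKM, and RNA-binding motif proteins for 22 of 38, led by RBM3 at 31.6 FPKM. Zinc finger proteins passed for 156 of 544 (28.7%), with ZNF703 highest at 85.1 FPKM, and solute carriers for 93 of 340 (27.4%), with the mitochondrial ADP/ATP carrier SLC25A5 highest at 113 FPKM. Per transcript kilobase, where 63.1% of protein-coding genes passed, the counts for these 8 families in the same order were 77, 53, 41, 46, 37, 33, 425, and 209.

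Families of tissue-specific function were low. None of 415 olfactory receptors, 24 bitter taste receptors of type 2, and 46 defensins passed, and their highest members were OR1F1 at 0.963 FPKM, TAS2R43 at 0.441, and DEFB131B at 0.0989 FPKM. Of 94 keratin-associated proteins 2 passed, with KRTAP19-1 at 2.34 FPKM from 10 reads. Potassium channels passed for 6 of 96 (KCNJ11, 5.7 FPKM), interleukins and their receptors for 5 of 85 (IL18BP, 7.32 FPKM), cytochromes P450 for 4 of 57 (CYP2R1, 1.91 FPKM), protocadherins for 5 of 66 (PCDHB2, 6.11 FPKM), chemokines and their receptors for 5 of 57 (CXCL16, 7.62 FPKM), keratins for 5 of 55, and collagens for 5 of 44 (COL6A1, 6.98 FPKM). Per transcript kilobase the counts were 1 olfactory receptor, 0 taste receptors, 1 defensin, 2 keratin-associated proteins, 28 potassium channels, 24 interleukin genes, 16 cytochromes P450, 14 protocadherins, 11 chemokine genes, 6 keratins, and 20 collagens, all of them shares below the 63.1% of protein-coding genes.

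The nuclear noncoding genes with the highest FPKM were mostly copies of ribosomal protein genes. With mitochondrial RNAs counted too, MT-RNR2 (3650 FPKM) and MT-TS1 (1854 FPKM) would be among the first 10 noncoding genes and 6 of these would be processed pseudogenes. Of the first 10 nuclear ones 7 are processed pseudogenes, among them RPL39P3 at 5991 FPKM, RPS28P7 at 3389, RPL41P1 at 3323, RPS2P5 at 2892, RPL36AP37 at 2021, and RPL13AP5 at 1913 FPKM. RPL39P3 had 6742, 6266, and 5543 FPKM in the miR-1, miR-122, and miR-124 libraries. Each is far above its intron-containing parent on the FPKM scale, since RPL39 had 10.6 FPKM and RPS28 had 39.6 FPKM. In reads, RPL39 had 361 against 6165 over its pseudogenes, so that 94.5% of the reads of this mRNA and its copies were assigned to pseudogenes, and the same share was 89.1% for RPS28, 99.0% for RPL36A, and 52.0% for RPS2.

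The copies can be compared with the mRNA base by base. The first 30 bases of 4 pseudogenes are shown because they hold the start codon and tell how little there is to separate a copy from its parent. They come from the GENCODE 44 transcripts with GRCh38 positions, and a capital marks a base that differs from the parent.
RPL39P3, chr6:73373234-73373263, minus strand: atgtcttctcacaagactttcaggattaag
RPS28P7, chr11:82689559-82689588, plus strand: atggacaccagccgtgtgcagcctatcaag
RPL36AP37, chr11:16974984-16975013, minus strand: atggttaacgtccctaaaacccgccggact
RPS3AP6, chr15:59768352-59768381, plus strand: atggcTgttggcaagaacaagcgccttacg

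Over their full length of 156, 210, and 321 bases, RPL39P3, RPS28P7, and RPL36AP37 had 0 mismatches to a transcript of the parent, and every window of 50 bases in them occurred in the parent too, while RPS3AP6, shown as the contrast, had 4 mismatches. A read inside such a window carries no base that assigns it to the copy or to the parent, so these FPKM values and those of the parents are uncertain, and how reads with several places in the genome were handled is not given in the sources used here. Most parent genes were little touched. Of 554 parent genes with at least 100 reads over the parent and its copies, 22 had more than 50% of them in pseudogenes, 327 had less than 1%, and the median was 0.653%.

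Other abundant noncoding genes lie within protein-coding genes on the opposite strand. The gene ENSG00000269968, a long noncoding RNA on the strand opposite to GAPDH and wholly within it, had 2020 FPKM from 7707 reads, where GAPDH had 13472 reads. MIR1282, a miRNA precursor gene of 101 bases with 3152 FPKM, lies on the strand opposite to SERF2, which had 2474 reads against its 2088. Whether reads were counted by strand is not given in the sources used here, and without strand the reads of such a pair cannot be told apart. Of the 29 long noncoding RNA genes at 100 FPKM or more, 23 (79.3%) had at least 90% of their exons within other genes, against 19.8% of the 1706 at 1 FPKM or more and 5.24% of all 14262. RN7SL2, the RNA of the signal recognition particle, had 1660 FPKM, and 2573, 2293, and 2694 FPKM in the miR-1, miR-122, and miR-124 libraries, all of them above the control RNA library. Other annotated genes cover 100% of the exons of RN7SL2, and their part in its reads was not tested.

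Protein-coding genes with much overlap passed less often, and whether the overlap itself lowered their values was not tested. Of 702 with at least 90% of their exons inside other genes, 11.3% passed 1 FPKM and 21.9% passed per transcript kilobase, against 31.3% and 63.1% of the 15702 with under 10% overlap. By chromosome, the share of protein-coding genes at 1 FPKM ranged from 19.2% on chromosome 18, where the median gene spans 54.1 kb, to 43.6% on chromosome 17, where it spans 17.1 kb. Per transcript kilobase the range was narrower, from 49.5% on chromosome X to 67.8% on chromosome 13, and chromosomes 18 and 17 had 65.7% and 65.3%.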

How the data were processed

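RNA-seq was done on total RNA (1 µg) of 293T cells with an mRNA library kit. According to the submitters' processing notes, CASAVA 1.8 and HISAT2 2.0.0 were used with GRCh38. The files that the authors deposited hold 1 FPKM value per Ensembl gene. Which program counted the reads, and over which annotation, is not given in the sources used here.

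The reads behind the deposited FPKM values were recovered. The divisor of each library was found from the values that short genes share, and the length was the end minus the start of the gene in GENCODE 44, or, where this gave no whole reads within 0.001 of a read, the length that makes reads whole in all libraries. Of 32010 matched genes above 0, 18302 were whole at the annotated length, 13681 had a fitted one, and 27 had none. The recovered reads came to 101.3% of the divisor. On simulated data of 31983 genes 4 of 4 divisors were recovered. The reads were exact for 99.8% of the 7456 genes with 200 or more simulated reads, a share that does not cover genes with fewer reads. The simulation drew reads on the recovered lengths, so it cannot show that those lengths are right. A fitted length can be off by a whole factor.

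Genes at 1 FPKM or more counted as expressed. Levels per transcript kilobase used the Ensembl canonical transcript. Overlap was the share of a gene's exons within other genes' exons. Only 1 library per condition exists, so nothing was tested. The gene lists, families, and members were chosen with earlier results of these data known. The text names the 20 protein-coding genes with the highest FPKM, up to 5 expressed members of each list and the members at 0, every expressed HOX gene, the highest member of each family, the 5 largest rises in rank and the 5 genes that enter the first 20 per transcript kilobase, and 10 noncoding genes. Some genes that this rule names are not reported here. Other genes were chosen after their values were seen. Python 3.11.15, pandas 2.3.3, numpy 2.4.6, scipy 1.17.1, and matplotlib 3.10.9 were used.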

Additional observations from a re-analysis of the deposited data

How the results depend on the processing

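The number of expressed genes depended on the threshold and on the length. It was 9488 at 1 FPKM, 24788 above 0.004 FPKM, 19264 at 0.1 FPKM or more, 3273 at 5 FPKM or more, 17340 at 1 or more per transcript kilobase, and 16899 with at least 10 reads. It stayed within 1.5 times in each mimic library and for the 7973 genes at 1 FPKM or more in all 4. Over the 21 lists, which hold 377 distinct genes, 122 passed at 1 FPKM, 210 at 0.1 FPKM, 203 per transcript kilobase, and 110 in all 4 libraries. Singly, 16 lists moved by more than 1.5 times at 0.1 FPKM, 14 per transcript kilobase, and 2 when all 4 libraries had to pass. Of the 20 families, 9 had a larger expressed share than the 16.3% of all genes, 7 had a larger one than the 32.5% of protein-coding genes, and 10 or 11 exceeded all genes at the other thresholds. Of the 20 protein-coding genes with the highest FPKM, 15 stayed among the first 20 per transcript kilobase and 9 by reads, which favour long transcripts, and 18 or 19 were also the first 20 of each mimic library. No paired analysis was possible because the 4 libraries differ in treatment and none has a replicate, so none could be left out.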
